A study of Homo sapiens with 6 samples.

Results

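The aminoacyl-tRNA synthetases are the enzymes that join each amino acid to its transfer RNA, and they supply every codon read by a ribosome. Their genes were taken from the deposited table by symbol, in the older spelling that the table uses, and all 38 were found among its 50868 genes. Of the 38, 22 act in the cytosol, namely 20 genes for enzymes or enzyme subunits and the scaffold genes AIMP1 and AIMP2. The other 16 carry a name ending in 2 and make mitochondrial enzymes. AIMP2 also ends in 2 but makes a scaffold of the cytosolic complex and was counted as cytosolic. The cells were CUTLL1, an established line of human T-cell acute lymphoblastic leukaemia grown with added glutamine and non-essential amino acids. One arm of 3 cultures (shAURKB) carried a lentiviral short hairpin RNA against AURKB, the kinase Aurora B of the chromosomal passenger complex, which acts in chromosome segregation. The other arm of 3 cultures (shGFP) carried a control hairpin, and both arms were kept under puromycin for 48 h. The comparison asks which genes change when Aurora B is depleted, in 1 cell line and with an unstated number of hairpin sequences.

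Cytosolic and mitochondrial translation use separate sets of synthetases, nearly all encoded by separate nuclear genes. GARS and KARS are exceptions, since each gene makes the enzyme of both compartments. In the cytosol several synthetases and the scaffolds AIMP1, AIMP2 and EEF1E1 assemble into the multisynthetase complex, while the remaining enzymes act outside it. When charged tRNA runs short, the kinase GCN2 (gene EIF2AK4) phosphorylates the initiation factor eIF2alpha, which raises translation of the transcription factor ATF4, and several cytosolic synthetase genes are known ATF4 targets. MYC, which drives growth of T-cell leukaemia, is likewise known to raise many genes of protein synthesis.

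Library totals ran from 10446722 to 11641019 reads in shAURKB and from 10154187 to 11922979 reads in shGFP. AURKB itself stood at 39.8, 43.9 and 36.0 CPM, read counts scaled to a common library size, in the shAURKB libraries and at 100.4, 97.0 and 107 CPM in the shGFP libraries. Its log2 fold change was -1.35 ± 0.08 (standard error; edgeR adjusted p = 2.54e-04), in the direction that the labels give. All 9 T-cell markers searched had reads, with summed levels of 2393 to 2501 CPM in shAURKB and 2255 to 2364 CPM in shGFP. Among markers of other cells, the fibroblast sum was 0.185 to 0.258 CPM in shAURKB and 0 to 17.9 CPM in shGFP, with the highest value in shGFP replicate 1. The epithelial sum was 0.278 to 0.859 CPM in shAURKB and 0.295 to 2.40 CPM in shGFP, again highest in shGFP replicate 1. The B-cell sum was 15.8 to 19.6 CPM in shAURKB and 20.7 to 22.6 CPM in shGFP, and the myeloid sum stayed below 1 CPM in every library. Of these lists, 2 of 4 fibroblast, 3 of 5 epithelial, 2 of 4 B-cell and 2 of 4 myeloid markers had any read, and the part of these transcripts in the results was not tested.

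Cytosolic synthetase genes changed in both directions, and fewer mitochondrial ones passed the test; the difference between the compartments was not tested. All 38 genes passed the filter on low counts. Among the 22 cytosolic genes, 7 fell and 9 rose in shAURKB (edgeR quasi-likelihood test, adjusted p below 0.05 over all tested genes). Among the 16 mitochondrial genes, 3 rose and 0 fell by the same test. At an unadjusted p below 0.05, 6 mitochondrial genes were higher and 1, TARS2, was lower, and TARS2 passed as the 1 gene that fell under upper-quartile scaling and with limma on FPKM with its filter, while DESeq2 gave 0. Of all 14818 genes tested, 23.3% changed, 12.5% upward and 10.9% downward; 53.4% of the changes were thus upward, and 38.8% were under upper-quartile scaling. Among the 9891 genes with a mean of at least 10 CPM, which is closer to the level of these genes, 29.2% changed, 17.9% upward and 11.4% downward, so 3 of 16 mitochondrial genes upward is near the background share. The 38 synthetase genes thus had 19 changes, 12 upward and 7 downward. The fitted log2 fold changes had a median of -0.02 in the cytosolic set and 0.11 in the mitochondrial set, beside -0.00 over all genes tested and 0.04 over genes of at least 10 CPM. The cytosolic median lay close to 0 and turned positive without shAURKB replicate 3 (0.01) or shGFP replicate 3 (0.02). The cytosolic values were spread from -0.78 to 0.69 with an SD across genes of 0.41, and the mitochondrial values from -0.20 to 0.38 with an SD of 0.17. The RNA comes from whole cultures, so fewer cells with a transcript and less of it per cell cannot be told apart.

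**Figure D1:**
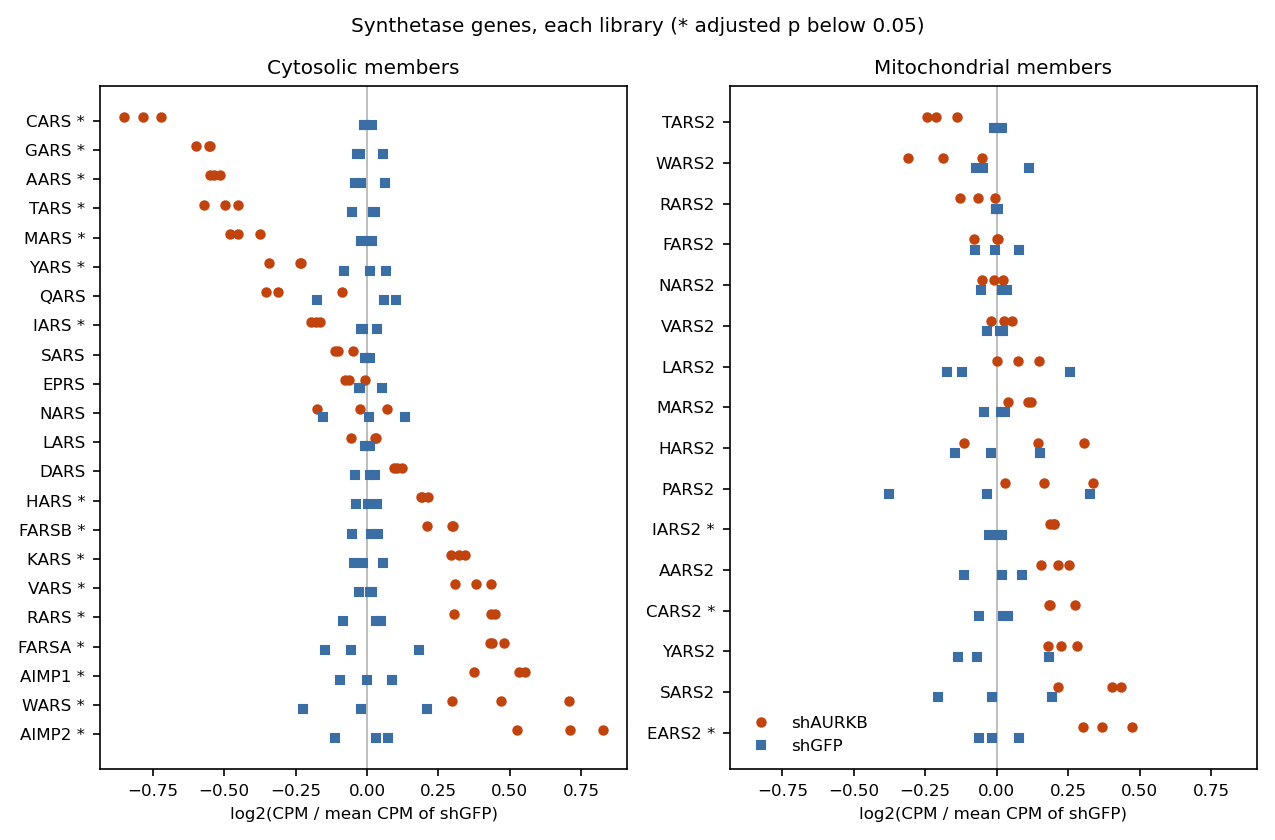
Level of each of the 38 genes in every library, as log2 of its CPM relative to the mean of the 3 shGFP libraries, in 1 panel per compartment. Circles are single shAURKB libraries, squares are single shGFP libraries, a star marks an edgeR adjusted p below 0.05, and genes run down the page by fold change; CARS, GARS, AARS and TARS lie furthest to the left and AIMP2 furthest to the right.

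The deepest falls were in 4 cytosolic enzymes that act outside the multisynthetase complex. CARS, the cysteinyl-tRNA synthetase (chr11:3000922-3057613, GRCh38), stood at 55.0, 52.6 and 57.6 CPM in shAURKB, against 96.0, 94.0 and 94.4 CPM in shGFP. Every shAURKB library lay far below every shGFP library, and the shGFP libraries were within a few CPM of each other. CARS fell by 41.9%, a log2 fold change of -0.78 ± 0.05 (edgeR adjusted p = 3.72e-04). GARS, the glycyl-tRNA synthetase of both compartments (chr7:30594681-30634033), had 232.6, 231.8 and 224.4 CPM in shAURKB, against 353.9, 334.1 and 332.3 CPM in shGFP. The arms were again widely apart, and GARS fell by 32.5% (log2 fold change -0.57 ± 0.04, edgeR adjusted p = 3.72e-04). AARS, the alanyl-tRNA synthetase (chr16:70252295-70289543), had 244.5, 248.0 and 242.0 CPM in shAURKB, against 369.9, 348.9 and 343.9 CPM in shGFP. The arms were again apart, and AARS fell by 30.9% (log2 fold change -0.53 ± 0.04, edgeR adjusted p = 4.34e-04). TARS, the threonyl-tRNA synthetase (chr5:33440696-33469539), had 167.6, 159.2 and 172.8 CPM in shAURKB, against 228.1, 239.8 and 241.0 CPM in shGFP. Its arms did not overlap, and it fell by 29.5% (log2 fold change -0.50 ± 0.05, edgeR adjusted p = 7.72e-04).

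YARS, the tyrosyl-tRNA synthetase, completed the cytosolic enzymes outside the complex that fell. It ran from 183.5 to 198.5 CPM in shAURKB and from 220.2 to 243.8 CPM in shGFP (log2 fold change -0.27 ± 0.05, edgeR adjusted p = 0.0129). The highest shAURKB value was below the lowest shGFP value. YARS shares exon bases with S100PBP on the opposite strand, whose log2 fold change was -0.40 ± 0.27 (edgeR adjusted p = 0.326), and whether the counting used strand is not given in the sources used here.

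The genes with the deepest falls shared a motif in their start regions. ATF4 and its C/EBP partners are known to bind the C/EBP-ATF response element, whose core is TGATGNAA. The core was searched on both strands in the RefSeq promoter windows of GRCh38.p14, from 250 bases before to 50 bases after each listed start, where 32 of the 38 genes had an entry. YARS, LARS, DARS, VARS, VARS2 and AARS2 had none. CARS, AARS and TARS held the same 8 letters, TTGCATCA, which is TGATGCAA read on the other strand, and GARS held TTTCATCA. The first base of the match lay at -2 in CARS, -33 in GARS, -187 in AARS and 3 in TARS, counted from the start. CARS, GARS and TARS each had 2 windows, and only 1 of them held the core. A gene was counted with the core if any of its windows held it.

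Across the members, the core was present in all 6 of the 6 cytosolic genes that fell and had a window, namely CARS, GARS, AARS, TARS, MARS and IARS. It was present in 0 of the 8 cytosolic genes that rose, in 1 of 4 cytosolic genes that did not pass the test (NARS), in 0 of the 3 mitochondrial genes that rose and in 1 of 11 mitochondrial genes that did not pass (YARS2). Among all RefSeq windows 3.62% of 35116 held the core, and among tested genes with a window 2.60% of 10026 did. The stricter letters TGATGCAA, looked for after the first search had been seen, were in CARS, AARS, TARS, MARS, IARS and NARS, and in 0.698% of the tested genes. NARS shows that the letters and the change did not always go together, since its level did not pass the test (log2 fold change -0.04 ± 0.09, edgeR adjusted p = 0.783). A second motif, the E-box CACGTG, which MYC and other factors of its family are known to bind, was in the windows of IARS, AIMP2, MARS2, CARS2 and EARS2. That is 5 of 32 members, beside 12.6% of tested genes, and the 5 comprise 1 gene that fell, 3 that rose and 1 that did not pass the test. A match of letters is not evidence that a factor binds there, and no binding was measured in these libraries.

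**Figure D2:**
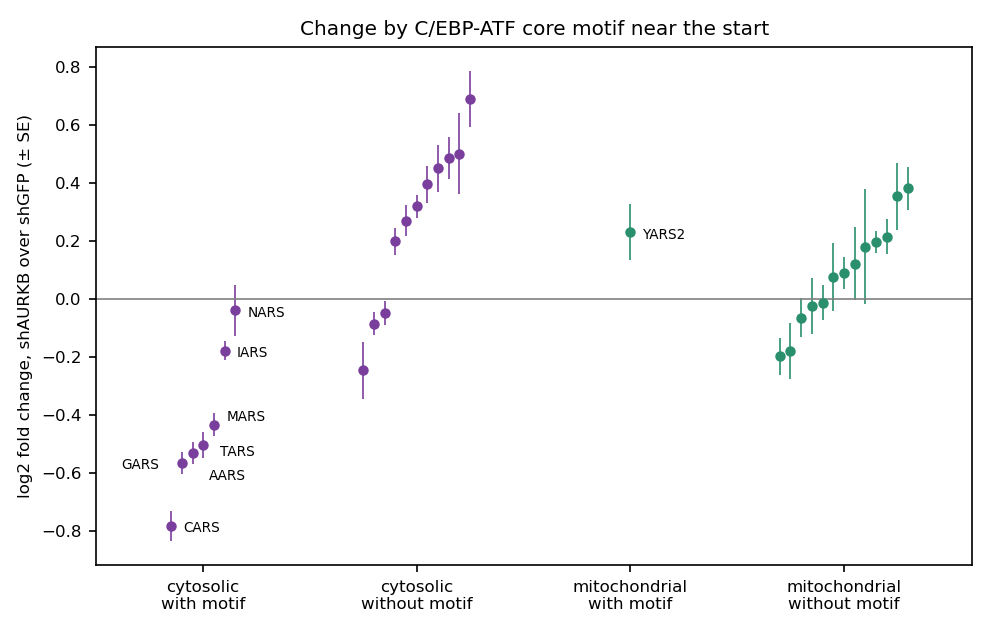
Log2 fold change of shAURKB over shGFP, with its standard error, for the 32 genes with a RefSeq window, split by compartment and by presence of TGATGNAA on either strand. Of the 7 cytosolic genes with the core, CARS, GARS, AARS, TARS, MARS and IARS lie below 0 by their test and NARS lies at -0.04; YARS2 is the mitochondrial gene with the core.

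The cytosolic enzymes outside the complex also included 5 that rose. WARS, the tryptophanyl-tRNA synthetase, known as an interferon-inducible gene, had 64.2, 72.4 and 85.3 CPM in shAURKB, against 60.5, 51.5 and 44.7 CPM in shGFP. The arms did not overlap but came close, and both arms were widely spread for a gene of this level. WARS rose by 41.6% (log2 fold change 0.50 ± 0.14, edgeR adjusted p = 0.0407), and adjusted p ran from 0.0582 to 0.169 under the 9 alternative settings in which the call was lost, among them the omission of shAURKB replicate 2 or 3 or of shGFP replicate 2 or 3. FARSA and FARSB make the alpha and beta subunits of the cytosolic phenylalanyl-tRNA synthetase, and both rose. FARSA had 194.6, 201.5 and 195.7 CPM in shAURKB, against 138.9, 163.8 and 130.4 CPM in shGFP (log2 fold change 0.45 ± 0.08, edgeR adjusted p = 9.94e-03). FARSB had 88.4, 82.9 and 88.2 CPM in shAURKB, against 72.4, 69.1 and 73.7 CPM in shGFP (log2 fold change 0.27 ± 0.05, edgeR adjusted p = 0.0133). In both subunits the lowest shAURKB library was above the highest shGFP library.

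VARS, the valyl-tRNA synthetase, had 183.5, 193.2 and 200.3 CPM in shAURKB, against 150.1, 149.2 and 145.3 CPM in shGFP. It rose by 29.8% with narrow shGFP values (log2 fold change 0.38 ± 0.05, edgeR adjusted p = 2.19e-03). HARS, the histidyl-tRNA synthetase, ran from 96.0 to 97.8 CPM in shAURKB and from 82.0 to 86.4 CPM in shGFP (log2 fold change 0.20 ± 0.05, edgeR adjusted p = 0.0223). Its arms were separate, but the change was small, and the call was lost in 11 alternative settings with adjusted p of 0.0511 to 0.102, among them the omission of any library but shGFP replicate 1. HARS lies head to head with its mitochondrial partner HARS2 on the opposite strand and shares 437 exon bases with it, so reads of the 2 genes may be mixed where they overlap.

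The remaining enzymes outside the complex did not pass the test. SARS, the seryl-tRNA synthetase, averaged 133.4 ± 3.12 CPM in shAURKB and 141.5 ± 0.964 CPM in shGFP (SD, n = 3 each), without overlap (log2 fold change -0.09 ± 0.04, edgeR adjusted p = 0.167). NARS, the asparaginyl-tRNA synthetase, averaged 208.7 ± 17.5 CPM in shAURKB and 214.4 ± 21.2 CPM in shGFP (SD, n = 3 each), with overlapping arms. By count, the 12 enzymes outside the complex comprised 5 that fell, 5 that rose and 2 that did not pass, with a median log2 fold change of -0.06. For all genes of at least 10 CPM the shares were 11.4% downward and 17.9% upward. In summed FPKM (a read level divided by gene length and library depth), these 12 genes gave 248.4 ± 2.48 in shAURKB and 288.7 ± 3.53 in shGFP (SD, n = 3 each), a difference of -13.9%. Deposited FPKM are scaled by library total, and after division by the TMM factors, tried after seeing the data, the difference was -10.7%. AARS and GARS, with the highest FPKM of these genes in shGFP, carry most of the fall in the sum. Mean FPKM of AARS was 41.3 in shAURKB and 61.9 in shGFP, and that of GARS was 34.7 and 53.3. The sum thus does not describe a fall shared by the 12 genes.

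The multisynthetase complex was divided as well. Of its genes 10 are among the 38, and its scaffold EEF1E1 is given below with the genes that act beside the synthetases. Of these 10 genes 4 rose, 2 fell and 4 did not pass the test, and the median log2 fold change was 0.05. Among all genes of at least 10 CPM, 17.9% changed upward and 11.4% downward. AIMP2, a scaffold that holds several synthetases and is needed for assembly of the complex, had 45.4, 39.9 and 49.2 CPM in shAURKB, against 25.7, 29.2 and 28.3 CPM in shGFP. It had the largest rise among the 38 genes, 61.5% (log2 fold change 0.69 ± 0.10, edgeR adjusted p = 3.89e-03), although its shAURKB libraries varied by several CPM. AIMP2 shares 532 of 1838 exon bases with EIF2AK1 on the opposite strand, a gene with 2405 to 2828 reads and a log2 fold change of -0.09 ± 0.05 (edgeR adjusted p = 0.267). AIMP1, the scaffold that binds the arginyl enzyme and is also the precursor of a secreted cytokine, had 87.8, 98.0 and 99.4 CPM in shAURKB, against 72.0, 67.8 and 63.5 CPM in shGFP. All 3 shAURKB libraries were higher, and the log2 fold change was 0.49 ± 0.07 (edgeR adjusted p = 4.79e-03). Its opposite-strand neighbour TBCK moved the other way (log2 fold change -0.40 ± 0.06, edgeR adjusted p = 5.67e-03).

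The arginyl and lysyl enzymes of the complex rose beside the scaffolds. RARS had 79.2, 86.7 and 87.6 CPM in shAURKB, against 60.6, 66.4 and 65.6 CPM in shGFP (log2 fold change 0.40 ± 0.06, edgeR adjusted p = 6.52e-03). KARS, which serves both compartments, had 238.9, 234.4 and 242.2 CPM in shAURKB, against 198.8, 189.4 and 185.1 CPM in shGFP (log2 fold change 0.32 ± 0.04, edgeR adjusted p = 2.58e-03). Neither gene had overlapping arms. KARS shares 176 exon bases with TERF2IP on the opposite strand, which had 568 to 1325 reads (log2 fold change -0.43 ± 0.38, edgeR adjusted p = 0.455). The methionyl and isoleucyl enzymes fell. MARS had 199.8, 189.3 and 185.5 CPM in shAURKB, against 259.2, 262.2 and 255.3 CPM in shGFP (log2 fold change -0.43 ± 0.04, edgeR adjusted p = 8.61e-04). IARS had 278.3, 275.0 and 281.0 CPM in shAURKB, against 322.7, 311.6 and 309.8 CPM in shGFP (log2 fold change -0.18 ± 0.03, edgeR adjusted p = 0.0101). The arms were separate in both, and MARS fell by 26.0% while IARS fell by 11.6%. MARS shares exon bases on the opposite strand with DDIT3, itself a known ATF4 target, which had only 80 to 134 reads (log2 fold change -0.42 ± 0.15, edgeR adjusted p = 0.0887). MARS also shares 519 exon bases with ARHGAP9, likewise on the opposite strand. ARHGAP9 had 502 to 681 reads (log2 fold change -0.17 ± 0.14, edgeR adjusted p = 0.421).

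The other enzymes of the complex did not pass the test. QARS, the glutaminyl-tRNA synthetase, averaged 107.6 ± 11.0 CPM in shAURKB and 127.7 ± 12.9 CPM in shGFP (SD, n = 3 each), and its arms overlapped (log2 fold change -0.25 ± 0.10, edgeR adjusted p = 0.116). DARS, the aspartyl-tRNA synthetase, averaged 147.0 ± 1.46 CPM in shAURKB and 136.5 ± 3.41 CPM in shGFP (SD, n = 3 each), without overlap (log2 fold change 0.11 ± 0.04, edgeR adjusted p = 0.0991). EPRS, a single protein with the glutamyl and prolyl activities, had a log2 fold change of -0.05 ± 0.04 (edgeR adjusted p = 0.434). LARS, the leucyl-tRNA synthetase, had a log2 fold change of 0.00 ± 0.04 (edgeR adjusted p = 0.977). The summed FPKM of the 10 complex genes, without EEF1E1, was 194.2 ± 2.05 in shAURKB and 188.5 ± 2.79 in shGFP (SD, n = 3 each). The difference was 3.01%, and 6.85% after division by the TMM factors.

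The mitochondrial enzymes changed over a narrower range than the cytosolic ones, with log2 fold changes from -0.20 to 0.38. Their mean levels were 6.59 to 146 CPM, against 36.3 to 299.5 CPM for the cytosolic genes. The part of this lower level in the number of calls was not tested. EARS2, which charges the mitochondrial glutamate tRNA and first places glutamate on the glutamine tRNA, had 38.4, 40.2 and 43.2 CPM in shAURKB, against 32.8, 30.8 and 29.8 CPM in shGFP. The arms did not overlap, and EARS2 had the largest called rise of this set (30.4%, log2 fold change 0.38 ± 0.07, edgeR adjusted p = 0.0121). EARS2 shares 370 exon bases with UBFD1 on the opposite strand, which had 342 to 1527 reads and a log2 fold change of 0.78 ± 0.64 (edgeR adjusted p = 0.427). In all, 16 of the 38 genes overlapped a gene with at least 10 reads, with GARS, KARS, WARS and CARS2 among them. IARS2, the isoleucyl enzyme, had 154.9, 156.7 and 156.5 CPM in shAURKB, against 133.7, 138.1 and 136.9 CPM in shGFP (log2 fold change 0.20 ± 0.04, edgeR adjusted p = 0.0117). CARS2, the cysteinyl enzyme, had 50.9, 51.0 and 54.2 CPM in shAURKB, against 46.1, 45.5 and 43.0 CPM in shGFP (log2 fold change 0.21 ± 0.06, edgeR adjusted p = 0.0418). In both, all shAURKB libraries were above all shGFP libraries by a small margin. The CARS2 call was lost in 13 alternative settings, with adjusted p of 0.0709 to 0.390, among them the omission of any 1 library.

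The other 13 mitochondrial genes did not pass the test, with log2 fold changes from -0.20 to 0.35. SARS2 averaged 33.5 ± 2.69 CPM in shAURKB and 26.2 ± 3.61 CPM in shGFP (SD, n = 3 each), without overlap (log2 fold change 0.35 ± 0.12, edgeR adjusted p = 0.0685, and 0.0379 without shGFP replicate 1). It shares exon bases on the opposite strand with MRPS12, a mitochondrial ribosomal protein gene that rose (log2 fold change 0.46 ± 0.06, edgeR adjusted p = 3.07e-03). AARS2 averaged 63.1 ± 2.16 CPM in shAURKB and 54.7 ± 3.84 CPM in shGFP (SD, n = 3 each), also without overlap (log2 fold change 0.21 ± 0.07, edgeR adjusted p = 0.0687). TARS2 leaned the other way, with 28.4 ± 1.08 CPM in shAURKB and 32.6 ± 0.337 CPM in shGFP (SD, n = 3 each; log2 fold change -0.20 ± 0.06, edgeR adjusted p = 0.0656). Without overlap between the arms were also RARS2 (log2 fold change -0.06 ± 0.07, edgeR adjusted p = 0.552) and MARS2 (0.09 ± 0.06, edgeR adjusted p = 0.283). The arms of WARS2, FARS2, NARS2, VARS2, LARS2, HARS2, PARS2 and YARS2 overlapped. PARS2, the prolyl enzyme, had the fewest reads of the 38 genes, with 7.01 ± 0.752 CPM in shAURKB and 6.18 ± 1.5 CPM in shGFP (SD, n = 3 each), so its standard error of 0.20 on the log2 scale leaves smaller changes undetectable at this depth. Over all 38 genes the arms were separate in 26, upward in 16 and downward in 10, beside 42.6% of all tested genes whose arms did not overlap, 21.7% upward and 20.9% downward.

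**Figure D3:**
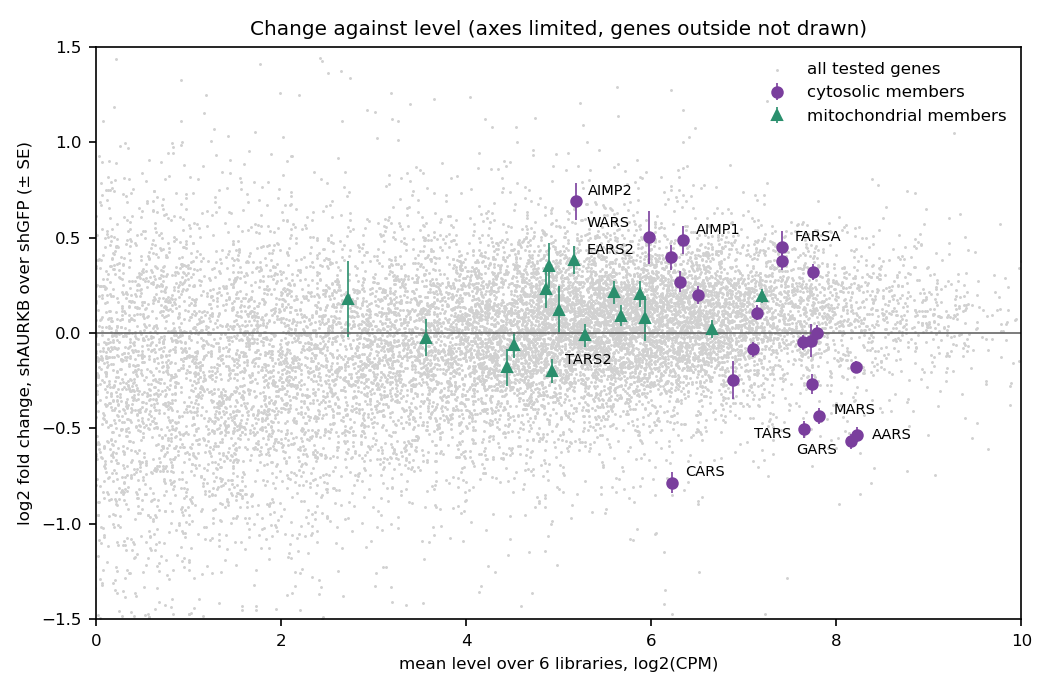
Log2 fold change of shAURKB over shGFP with its standard error against log2 of the mean CPM over 6 libraries, for the cytosolic (circles) and mitochondrial (triangles) genes, with the other tested genes that fall within the axes as grey dots. Cytosolic genes spread from -0.78 to 0.69 at mean levels of 36.3 to 299.5 CPM, and mitochondrial genes lie between -0.20 and 0.38 at 6.59 to 146 CPM.

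Ranked by FPKM in shAURKB, the cytosolic genes had a median of 17.7 and ran from 3.65 (CARS) to 41.3 (AARS). In shGFP their median was 20.7, from 2.73 (WARS) to 61.9 (AARS). The mitochondrial genes had a median of 5.97 FPKM in shAURKB, from 2.21 (CARS2) to 32.9 (IARS2), and of 5.91 FPKM in shGFP, from 1.98 (CARS2) to 29.8 (IARS2). The order of genes by FPKM is not settled, because the length behind the FPKM values was between 0.583 and 3.06 times the GENCODE exon length of the gene.

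Summed over genes, the cytosolic set gave 442.7 ± 2.61 FPKM in shAURKB and 477.2 ± 6.13 FPKM in shGFP (SD, n = 3 each), a difference of -7.24%, and of -3.78% after division by the TMM factors. AARS and GARS, with the highest FPKM of the set in shGFP, weigh heavily in this sum and in any ratio taken from it. The mitochondrial set gave 130.4 ± 1.57 FPKM in shAURKB and 124.8 ± 1.04 FPKM in shGFP (SD, n = 3 each), a difference of 4.56%, and of 8.45% after division by the TMM factors. The cytosolic to mitochondrial ratio of these sums, which such scaling leaves as it is, was 3.46, 3.35 and 3.37 in the shAURKB libraries, against 3.82, 3.85 and 3.80 in the shGFP libraries. All 3 shAURKB libraries had the lower ratio, and with 3 libraries in each arm an exact permutation test cannot give a p below 0.10.

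For 14 amino acids the cytosolic and mitochondrial enzymes could be paired within each library, which removes any effect of library scaling. The cytosolic to mitochondrial ratio was lower in every shAURKB library than in every shGFP library for 7 amino acids and higher for 4, and the arms overlapped for 3. For single genes the arms of 42.6% of all tested genes were separate, and no such share was computed for ratios. For cysteine the FPKM ratio of CARS to CARS2 was 1.69, 1.61 and 1.66 in shAURKB, against 3.25, 3.22 and 3.43 in shGFP, a log2 difference in count ratios of -0.999. For alanine the ratio of AARS to AARS2 was 2.96, 3.22 and 3.01 in shAURKB, against 5.02, 5.44 and 4.89 in shGFP, a log2 difference of -0.74. In both pairs the cytosolic gene was lower and the mitochondrial gene higher in shAURKB, though AARS2 alone did not pass its test. Methionine (-0.53), tyrosine (-0.50), serine (-0.45), isoleucine (-0.37) and threonine (-0.31) followed on the same log2 scale.

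In the opposite direction, the ratio of WARS to WARS2 was 1.14, 1.07 and 1.39 in shAURKB, against 0.895, 0.681 and 0.672 in shGFP, a log2 difference of 0.68. Which gene of the pair is higher is not settled, because the length behind the FPKM was 3.06 times the GENCODE exon length for WARS and 1.67 times for WARS2. In reads WARS was above WARS2 in both arms, with a mean log2 count ratio of 1.86 in shAURKB and 1.17 in shGFP. Arginine (0.46), phenylalanine (0.42, with FARSA and FARSB summed) and valine (0.36) also had higher ratios in shAURKB. The arms overlapped for leucine (-0.09), asparagine (-0.03) and histidine (0.08). VARS2 shares 1858 of 8448 exon bases with GTF2H4 on the same strand, a gene with 222 to 333 reads. HARS2 shares 152 exon bases with ZMAT2 on the same strand, which rose (log2 fold change 0.29 ± 0.05, edgeR adjusted p = 6.11e-03). The effect of these overlaps on the ratios was not tested. The 11 amino acids whose arms were separate each had an exact permutation p of 0.10, the smallest this design allows, and a Benjamini-Hochberg value of 0.127 over the 14 pairs, so none passes a threshold of 0.05. The median log2 difference over the 14 pairs was -0.20.

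**Figure D4:**
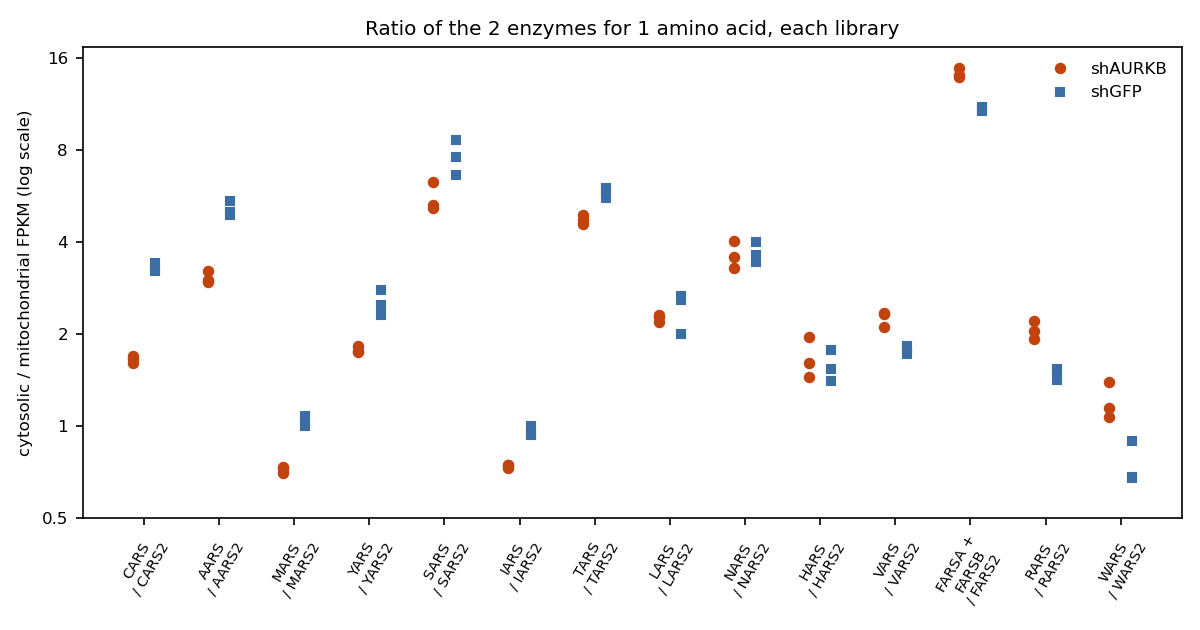
Ratio of cytosolic to mitochondrial FPKM on a log axis for 14 amino acids, with 1 point for each of the 3 shAURKB libraries (circles) and the 3 shGFP libraries (squares). Amino acids run from the lowest log2 difference between arms, cysteine (CARS over CARS2, mean ratio 1.65 in shAURKB and 3.30 in shGFP), to the highest, tryptophan (WARS over WARS2, 1.20 in shAURKB and 0.749 in shGFP).

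Synthetases fall into catalytic classes I and II by the fold of their active site. Of the 9 cytosolic class I genes 4 fell and 3 rose, with a median log2 fold change of -0.18. Of the 10 cytosolic class II genes 3 fell and 4 rose, with a median of 0.03. Both classes thus held genes that moved in either direction, CARS and WARS in class I and GARS and FARSA in class II. In mitochondria the 3 genes that rose, EARS2, IARS2 and CARS2, were all among the 9 class I genes, and 0 of the 7 class II genes passed the edgeR test, although AARS2, SARS2 and TARS2 had an unadjusted p below 0.05. The CARS2 call was lost in 13 of 15 alternative settings, and the median log2 fold change was 0.09 in mitochondrial class I and 0.12 in class II. Among all genes of at least 10 CPM, 17.9% changed upward and 11.4% downward. The difference between the classes was not tested.

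The genes that act beside the synthetases were followed with a list of 20, of which 19 could be tested; 6 rose and 2 fell, with a median log2 fold change of 0.20. Of all tested genes 23.3% changed, and of those with at least 10 CPM 29.2% changed, with a median of 0.04. SEPSECS, the enzyme that completes selenocysteine on its tRNA, had 25.2, 21.2 and 21.7 CPM in shAURKB, against 37.5, 35.0 and 37.2 CPM in shGFP (log2 fold change -0.69 ± 0.09, edgeR adjusted p = 2.66e-03). Its arms were far apart, and the call held in all 15 alternative settings. XPOT, which exports tRNA from the nucleus, had 331.8, 352.7 and 336.3 CPM in shAURKB, against 362.3, 377.7 and 391.7 CPM in shGFP (log2 fold change -0.15 ± 0.04, edgeR adjusted p = 0.0432). The XPOT change was small, and its call was lost in 8 of 15 alternative settings, with adjusted p of 0.0553 to 0.128, among them the omission of any library but shGFP replicate 1.

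Among partners that rose, EEF1E1, the scaffold also called AIMP3, had 29.9, 31.8 and 30.6 CPM in shAURKB, against 23.5, 22.8 and 24.5 CPM in shGFP (log2 fold change 0.38 ± 0.07, edgeR adjusted p = 9.11e-03). All 3 scaffold genes of the multisynthetase complex were therefore higher in shAURKB. TUFM, the mitochondrial elongation factor that carries charged tRNA to the ribosome, had 332.8, 325.8 and 346.6 CPM in shAURKB, against 250.9, 250.6 and 245.6 CPM in shGFP (log2 fold change 0.43 ± 0.04, edgeR adjusted p = 6.33e-04). QRSL1, a subunit of the amidotransferase that turns the glutamate placed by EARS2 into glutamine, had a log2 fold change of 0.30 ± 0.06 (edgeR adjusted p = 0.0159), a call lost without shAURKB replicate 2 or 3 or shGFP replicate 2 (0.0506 to 0.0531). The other subunits of that enzyme, GATB (0.06 ± 0.07, edgeR adjusted p = 0.591) and GATC (-0.08 ± 0.07, edgeR adjusted p = 0.469), did not pass the test. PTRH2, a peptidyl-tRNA hydrolase, also rose (log2 fold change 0.37 ± 0.07, edgeR adjusted p = 9.06e-03).

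The genes of GCN2, the sensor of uncharged tRNA, and of its activator GCN1 were on the same list. EIF2AK4, the kinase GCN2, had 101.4, 101.1 and 109.4 CPM in shAURKB, against 90.0, 93.1 and 88.5 CPM in shGFP (log2 fold change 0.20 ± 0.05, edgeR adjusted p = 0.0348). Its arms were separate, but its call was lost in 13 of 15 alternative settings, with adjusted p of 0.0568 to 0.168, among them the omission of any 1 library. GCN1, which activates GCN2 on ribosomes, had 481.8, 493.6 and 502.7 CPM in shAURKB, against 394.6, 395.3 and 402.5 CPM in shGFP (log2 fold change 0.31 ± 0.03, edgeR adjusted p = 1.15e-03). These are transcript levels, and the activity of the kinase was not measured. EEF1A1, the cytosolic counterpart of TUFM, had a log2 fold change of 0.01 ± 0.06 (edgeR adjusted p = 0.935).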

How the data were processed

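RNA of 3 shAURKB and 3 shGFP cultures, called biological replicates in the series' design text, was analysed. The authors deposited whole-number counts per gene, and FPKM for the same genes, per the file headers. In 9460 genes the FPKM came back from the counts, a gene length and a library depth to within a relative error of 8.13e-06. HISAT2 2.0.4, StringTie 1.3.0, edgeR and GRCh38 are named per the submitters' processing notes. How these tools were set, for strand or for multiply mapped reads, the sources used here do not say.

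Counts were filtered by filterByExpr (minimum count 10, total 15), scaled by TMM and tested two-sided by edgeR 4.0.16 (quasi-likelihood) in R 4.3.3. Adjusted p-values are Benjamini-Hochberg values over all 14818 genes tested, and the standard error is the fitted log2 fold change divided by the root of its F. CPM are TMM-scaled, except marker sums. Each group of genes (complex, other cytosolic, mitochondrial) has values in every library for up to 4 called genes per direction. Count ratios had 0.5 reads added. Replicates of an arm differed beyond sampling noise (chi-square per degree of freedom 6.92 to 7.91). Alternatives used DESeq2 1.42.0 and limma 3.58.1 on log2(FPKM + 1) of genes with at least 0.5 FPKM in 3 libraries. The 16 pseudogenes named after the synthetases had at most 4 reads each. The 38 genes and the lists were chosen with earlier results of these data known. Promoter windows are from RefSeq (GRCh38.p14), matched by symbol. The full sequences of these windows and 1 partner gene are not reported here.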

Additional observations from a re-analysis of the deposited data

How the results depend on the processing

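Of the 19 changed synthetase genes, 15 stayed past the threshold in the same direction under all 15 alternatives, and 0 changed sign. The calls of HARS, WARS, CARS2 and EARS2 were lost in some, the last of them only by limma on log2(FPKM + 1) without a filter (adjusted p = 0.089). That setting gave 914 genes higher among all genes and 1 among the mitochondrial ones (IARS2). With the replicate block, the cytosolic set had 7 genes higher and 7 lower, the mitochondrial set 2 higher and 0 lower, and 1027 of all genes were lower, against 1609 without it. Leaving out 1 library gave 998 to 1056 genes lower. Same-numbered libraries did not deviate together (r of -0.0791, -0.0380 and -0.0290), so the replicate numbers were not taken to pair the cultures. TARS2 was the 1 mitochondrial gene that was lower under upper-quartile scaling and with limma on log2(FPKM + 1) or log2(FPKM + 0.1). With 1 library left out, 2 to 4 mitochondrial genes were higher, and SARS2 (adjusted p = 0.0379) and YARS2 (0.0389) passed without shGFP replicate 1. SARS passed as lower under upper-quartile scaling (adjusted p = 0.0486) and with limma on FPKM (0.0433 to 0.0497). Partner genes that were lower numbered 1 with DESeq2, without the low-count filter and with the replicate block, and 1 to 2 with 1 library left out. Of the libraries left out, only shGFP replicate 1 left XPOT past the threshold. QRSL1 missed it without shAURKB replicate 2 (adjusted p = 0.0531), shAURKB replicate 3 (0.0511) or shGFP replicate 2 (0.0506).

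The cytosolic median log2 fold change was -0.072 under upper-quartile scaling, -0.067 with limma on log2(FPKM + 1) with or without the filter, -0.069 on log2(FPKM + 0.1), and -0.032 to 0.019 with 1 library left out. The mitochondrial median was 0.052 under upper-quartile scaling, 0.046 with limma on log2(FPKM + 1) with or without the filter, 0.052 on log2(FPKM + 0.1), and 0.077 to 0.15 with 1 library left out. Upper-quartile scaling moved the median of all genes to -0.058. Changes of sign were limited to genes and ratios that did not pass the test. Under upper-quartile scaling, limma on log2(FPKM + 1) with or without the filter, and limma on log2(FPKM + 0.1), LARS was at -0.052, -0.047 and -0.050, and VARS2 at -0.034, -0.028 and -0.031. LARS was at -0.0030 with the filter of 1 CPM in 3 libraries. With 1 library left out, the log2 fold change ran from -0.0096 to 0.035 in LARS, -0.11 to 0.035 in NARS, -0.059 to 0.019 in FARS2, -0.039 to 0.010 in NARS2 and -0.0023 to 0.23 in LARS2. The log2 ratio difference then ran from -0.040 to 0.18 for HARS to HARS2 and from -0.10 to 0.041 for NARS to NARS2. Counting AIMP2 as mitochondrial gave 8 cytosolic genes higher and 7 lower and 4 mitochondrial genes higher. Leaving out GARS and KARS, which serve both compartments, gave 8 cytosolic genes higher and 6 lower. The cause of these shifts was not tested. Errors did not follow depth alone: the standard error of the log2 fold change was 0.20 in PARS2, the member with the fewest reads, and 0.14 in WARS.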
